A study of Mus musculus with 24 samples.

Results

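The genes described here are 10 genes of the DNA damage checkpoint in mouse embryonic fibroblasts: the kinases Atm, Atr, Chek1, Chek2 and Wee1, and the proteins that switch those kinases on or pass their signal along, Rad17, Hus1, Topbp1, Clspn and Mdc1. They were chosen by name, with earlier results of these data known, as the array probes named for each gene or for an older symbol of it. A probe was found for 8 of the 10 genes, out of 19512 genes with a probe in the whole series. Atr and Mdc1 were not analysed here. The series measured the mRNA of immortalized Ku70-/- fibroblasts with 1-colour Agilent arrays, to compare cells given the oxidizing agent potassium bromate (KBrO3), bisphenol A (BPA), or both. All cells, the controls included, carried the deletion of Ku70 (Xrcc6), whose product is needed for end joining of double-strand breaks.

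The first set held 15 arrays in 5 groups of 3. These were untreated controls labelled 4 hr, cells given 20 mM KBrO3 for 1 hr and left to repair for 3 or 23 hr (called 4 and 24 hr), and co-exposed cells. The co-exposed cells had 150 µM BPA for 1 hr beforehand, both agents for 1 hr, and BPA again during the 3 or 23 hr of repair. The second set, processed apart, held 9 arrays in 3 groups of 3: untreated controls with no time in their labels, and BPA alone for 4 or 24 hr by the labels, to which the Methods add 1 hr. No control labelled 24 hr was analysed here, so in both sets each 24 hr group was compared with the same controls as its 4 hr group, and the comparisons that share controls are not independent. The Methods call the replicates biological, without saying how the cultures were separated. They are cultures of 1 cell line, and p-values measure the spread between the arrays of a group. In the first set these arrays mostly shared a slide.

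Checkpoint signaling holds the cell cycle while DNA is damaged. Atm is activated at double-strand breaks and Atr at stretches of single-stranded DNA. Rad17 loads the ring-shaped clamp formed by Rad9, Rad1 and Hus1 next to the damage, Topbp1 joins the clamp and activates Atr, and Clspn (claspin) then brings Chek1 to Atr. Mdc1 gathers repair factors at breaks, where Atm activates Chek2. Chek1 and Chek2 act on Cdc25 phosphatases and p53, and Wee1 phosphorylates Cdk1 to delay mitosis. These proteins are regulated largely by phosphorylation, which arrays do not measure. In bulk cultures, a change in the share of cells at some stage of the cycle and a change in the mRNA of each cell cannot be told apart.

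Values below are normalized log2 signals: the log2 of the processed signal minus the 75th percentile of its array, so that 0 is the level of a probe at that percentile. They compare arrays for 1 probe and say nothing of how abundant one gene is against another. Each gene was represented by the brightest of its probes, and all 8 of these were well above background on every one of the 24 arrays. A difference was called at a limma adjusted p below 0.05, over all 27310 probes tested in the first set or 31809 in the second. Between 57.7 and 68.1% of the spots of a first-set array were well above background, and 76.4 to 79.4% in the second set. The arrays of the second set scattered more, with a median residual SD of 0.34 against 0.107. Each set was spread over 5 slides. KBrO3 4 hr was the only treated group of the first set that shared a slide with controls, and the remaining comparisons with control cannot be told apart from slide. Of 7 fibroblast markers, 6 were well above background on every array of the first set and 7 on every array of the second, and their mean level by array ran from 3.47 to 5.54 in the first set. Of the macrophage, epithelial, muscle and endothelial markers, Cd68, Lyz2 and Tek were above background on every array of both sets, and Csf1r, Krt8, Krt18, Myod1, Myog and Kdr on every array of the second. Ptprc, Pecam1, Des and Myh3 were on none. The mean levels of these 4 lists ran from −7.15 to −3.87 in the first set, and their part in the results was not tested. The 7 fibroblast markers were all lower than control at 24 hr, with a median of −1.29 after KBrO3 and −1.65 after co-exposure, and the part of this in the results below was not tested. The probe for Xrcc6 was well above background in every group (0.10 ± 0.10 (SD, n = 3) in the first controls). Its place relative to the deletion is not given in the sources used here, so it does not check the genotype.

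After KBrO3 alone, Chek1 and Clspn were raised and Chek2 and Topbp1 were lowered at 4 hr, and by 24 hr Chek2, Topbp1, Hus1, Clspn and Atm stood above control while Chek1 was back at the control level. With the normexp background correction Topbp1 (−0.17) and Clspn (0.17) were not called at KBrO3 4 hr. With the same correction, of the 6 genes called at KBrO3 24 hr, Topbp1 was still called as higher, Wee1 was called as lower (−1.05), and Hus1 (0.16), Clspn (0.12), Atm (0.20) and Chek2 (−0.04) were not called. At 4 hr of KBrO3, 6 of the 8 genes were called, 3 higher and 3 lower, where 72.1% of all probes were called (36.3% higher, 35.8% lower). At 24 hr, 6 were called, all of them higher, against 66.2% of all probes (32.1% higher, 34% lower). Co-exposure gave 5 calls at 4 hr, 3 higher and 2 lower (78.6% of all probes, 41.6% higher and 37% lower), and 8 at 24 hr, 7 higher and 1 lower (69.9%, 32.9% higher and 37% lower). The median difference of the 8 genes from control was 0.06 at KBrO3 4 hr, where that of all probes was 0.06. It was 0.48 against −0.02 at KBrO3 24 hr, 0.19 against 0.08 at co-exposure 4 hr, and 0.38 against −0.07 at co-exposure 24 hr. At the threshold of the Methods, a Bonferroni-adjusted p below 0.01 with a fold change beyond 1.5, Chek2 alone among the 8 was called by its brightest probe, in each of these 4 comparisons. Dimmer probes that passed were those of Rad17 at co-exposure 4 hr, of Atm at 24 hr in both treatments and of Hus1 (A_52_P356119) at co-exposure 24 hr. That rule called 28.8% of all probes at KBrO3 4 hr, 16.8% at KBrO3 24 hr, 32.6% at co-exposure 4 hr and 20.8% at co-exposure 24 hr.

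**Figure D1:**
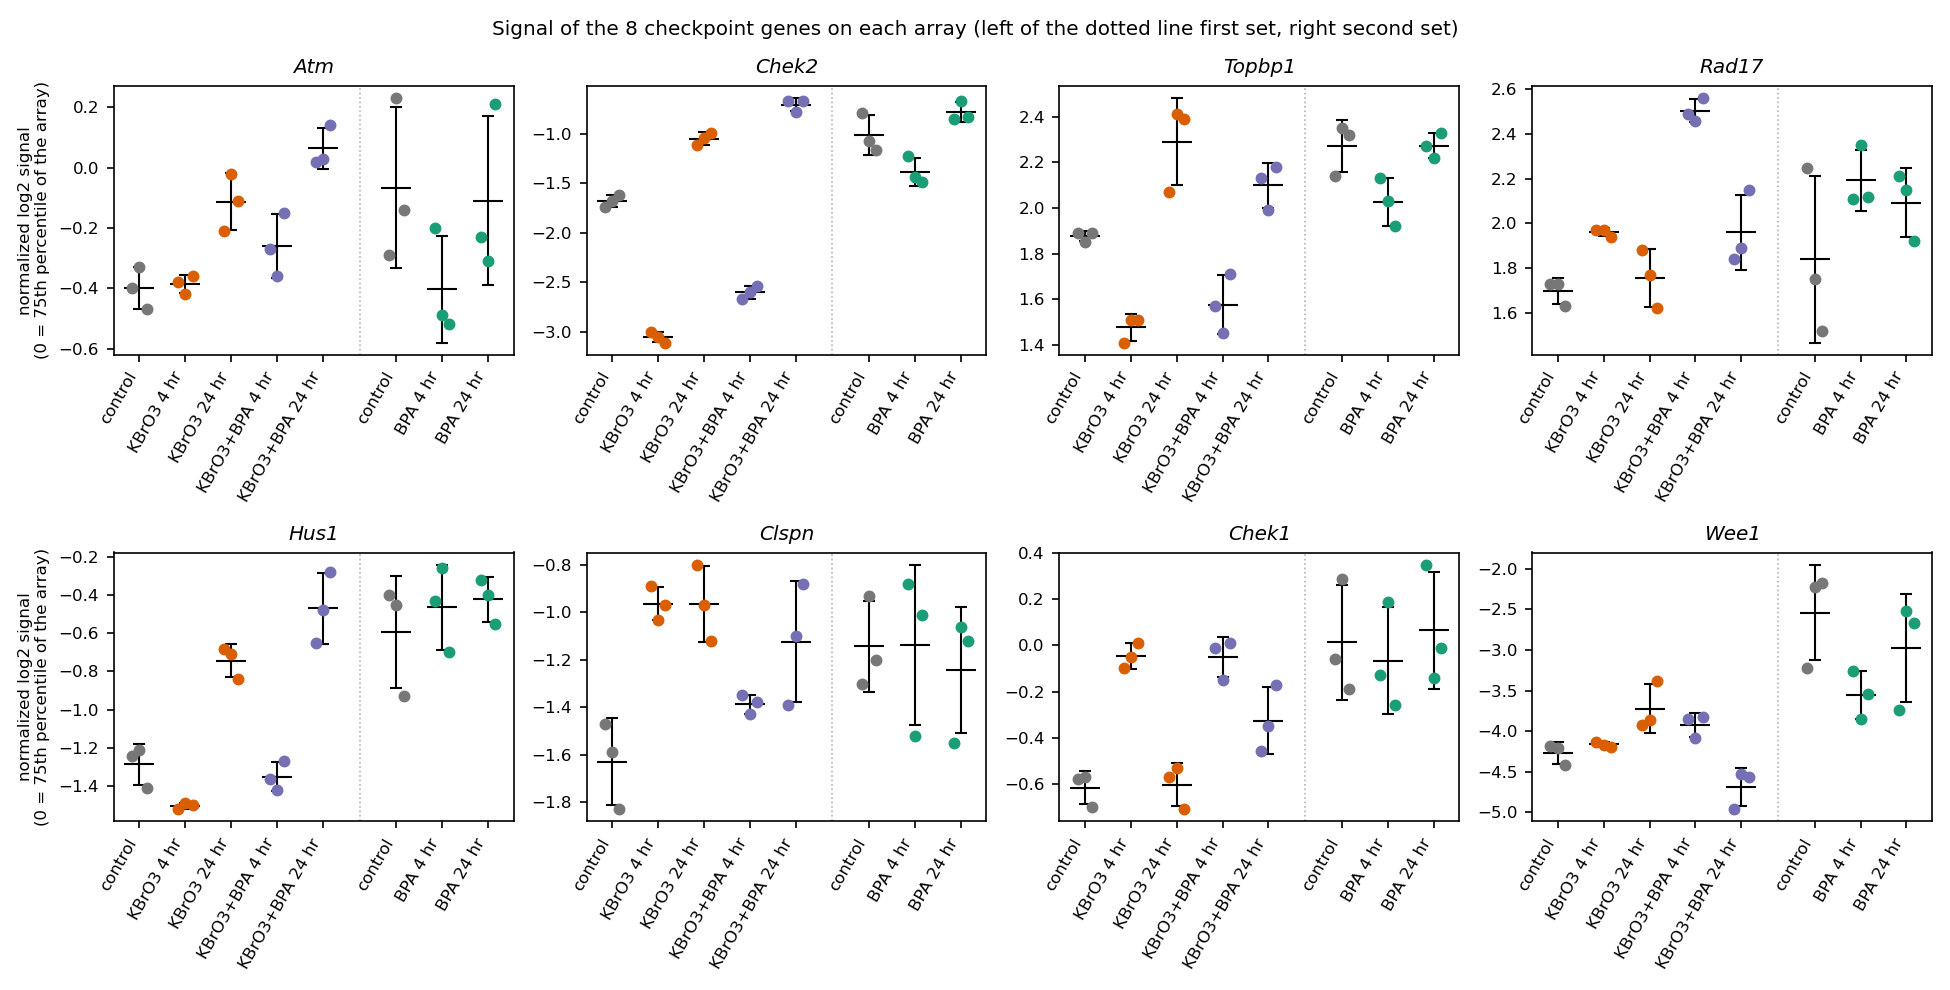
Normalized log2 signal of each of the 8 genes on every array, by group and set, with a horizontal line at each group mean and error bars of 1 SD (n = 3). The 3 Chek2 arrays at KBrO3 4 hr lie between −3.11 and −3.00, below every control (−1.74 to −1.62), and for most genes the groups of the second set spread more widely.

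Atm, the kinase activated at double-strand breaks, was not called at KBrO3 4 hr and was higher at 24 hr. Its control arrays read −0.40, −0.33 and −0.47, and the KBrO3 4 hr arrays −0.38, −0.42 and −0.36. The KBrO3 24 hr arrays read −0.21, −0.02 and −0.11. The 24 hr arrays all lay above the controls, while those at 4 hr lay among them. The difference from control was 0.02 (95% interval −0.13 to 0.16, limma adjusted p = 0.827) at 4 hr and 0.29 (SE 0.066, adjusted p = 0.00205) at 24 hr. Co-exposed cells read −0.27, −0.36 and −0.15 at 4 hr, a difference of 0.14 that was not called (adjusted p = 0.0693), and 0.02, 0.03 and 0.14 at 24 hr, a rise of 0.47 (adjusted p = 4.37e-05). The 24 hr co-exposed arrays were the highest of the 15.

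A second Atm probe is spotted 10 times on the array, so that it carries a technical check of its own. Its sequence is shown because it gave larger rises than the first probe at 24 hr against control in both treatments. It lies on the minus strand of chr9:53426745-53426804 in mm7, the build named in the headers of the first set's files. The array annotates this probe by a RefSeq transcript, and the first probe, which stands for Atm, by a sequence outside RefSeq. Exon annotation of that build was not used here.
Atm probe A_52_P369581: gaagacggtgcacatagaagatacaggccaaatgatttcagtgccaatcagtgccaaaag
Over its spots on 1 array the median SD was 0.0894 (first set). It gave 0.04 (adjusted p = 0.468) at KBrO3 4 hr and 0.70 (adjusted p = 6.45e-08) at KBrO3 24 hr. In co-exposed cells it gave 0.42 (adjusted p = 3.83e-06) at 4 hr and 0.75 (adjusted p = 2.32e-08) at 24 hr. Both Atm probes thus showed a rise at 24 hr, and they differed on whether co-exposed cells had already risen at 4 hr.

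Rad17, the clamp loader, rose most in co-exposed cells at 4 hr. Controls read 1.73, 1.73 and 1.63, the KBrO3 4 hr arrays 1.97, 1.97 and 1.94, and the co-exposed 4 hr arrays 2.49, 2.46 and 2.56. The 3 groups did not overlap. Rad17 was 0.26 above control after KBrO3 (SE 0.081, adjusted p = 0.0114, but 0.15 and not called with quantile normalization) and 0.81 after co-exposure (adjusted p = 1.45e-06), a fold change of 1.75. By 24 hr the KBrO3 arrays read 1.88, 1.77 and 1.62 and overlapped the controls (difference 0.06, adjusted p = 0.541), and the co-exposed arrays read 1.84, 1.89 and 2.15 (0.26, adjusted p = 0.0123). A second Rad17 probe gave 0.20 (adjusted p = 0.00864) and 0.73 (adjusted p = 1.79e-07) at 4 hr, and 0.12 (adjusted p = 0.086) and 0.27 (adjusted p = 0.00133) at 24 hr, for KBrO3 and co-exposure in that order. The calls of the 2 probes were the same in these 4 comparisons.

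Hus1, a subunit of the clamp that Rad17 loads, was higher than control at 24 hr in both treatments. Controls read −1.24, −1.21 and −1.41, the KBrO3 24 hr arrays −0.68, −0.71 and −0.84, and the co-exposed 24 hr arrays −0.65, −0.48 and −0.28. Every treated array at 24 hr exceeded every control. The rises were 0.54 (adjusted p = 0.000126) after KBrO3 and 0.82 (adjusted p = 3.3e-06) after co-exposure, fold changes of 1.46 and 1.76. At 4 hr of KBrO3 the arrays read −1.52, −1.49 and −1.5, 0.21 below control (adjusted p = 0.0436), but with slide as a block the difference was −0.09 (adjusted p = 0.358). Co-exposed arrays at 4 hr read −1.36, −1.42 and −1.27 and were not called (−0.06, adjusted p = 0.519). The other probes of Hus1 also rose at 24 hr, by 0.57 and 0.80 after KBrO3 and by 0.87 and 1.06 after co-exposure. One of them, A_52_P356119, was lower than control in co-exposed cells at 4 hr (−0.38, adjusted p = 0.00018), where the brightest probe was not called.

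Topbp1, the activator of Atr, fell at 4 hr and rose at 24 hr after KBrO3. Controls read 1.89, 1.85 and 1.89, the KBrO3 4 hr arrays 1.41, 1.51 and 1.51, and the KBrO3 24 hr arrays 2.07, 2.41 and 2.39. No 2 of these groups overlapped. The differences from control were −0.40 (SE 0.092, adjusted p = 0.00175, but −0.17 and not called with normexp) at 4 hr and 0.41 (adjusted p = 0.00162) at 24 hr, and from 4 to 24 hr the gene rose by 0.82 (adjusted p = 4.82e-06). Co-exposed cells read 1.57, 1.45 and 1.71 at 4 hr and 2.13, 1.99 and 2.18 at 24 hr. These were −0.30 (adjusted p = 0.0101) and 0.22 (adjusted p = 0.0457) from control, and neither was called with slide as a random block (−0.15, adjusted p = 0.377, and 0.16, adjusted p = 0.352).

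Clspn, which couples Atr to Chek1, was raised by KBrO3 at both times. The controls read −1.47, −1.59 and −1.83, the KBrO3 4 hr arrays −0.89, −1.03 and −0.97, and the KBrO3 24 hr arrays −0.80, −0.97 and −1.12. Both KBrO3 groups lay wholly above the controls. The rise was 0.67 (SE 0.13, adjusted p = 0.000425) at 4 hr and 0.67 (adjusted p = 0.000529) at 24 hr, a fold change of 1.59 each time, but with the normexp correction the values were 0.17 (adjusted p = 0.441) and 0.12 (adjusted p = 0.602). Co-exposed arrays read −1.35, −1.43 and −1.38 at 4 hr, 0.24 above control and not called (adjusted p = 0.0947). At 24 hr they read −1.39, −1.10 and −0.88, a rise of 0.51 (adjusted p = 0.00337), or 0.03 with normexp (adjusted p = 0.898).

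Chek1, the effector kinase of Atr, rose at 4 hr both with and without BPA. The controls read −0.58, −0.57 and −0.70, the KBrO3 4 hr arrays −0.10, −0.05 and 0.01, and the co-exposed 4 hr arrays −0.01, −0.15 and 0.01. The treated groups overlapped each other and lay wholly above the controls. Chek1 was 0.57 above control after KBrO3 (SE 0.078, adjusted p = 2.78e-05) and 0.57 after co-exposure (adjusted p = 2.66e-05). The difference between the treatments was −0.00, with a 95% interval of −0.17 to 0.17. At 24 hr the KBrO3 arrays read −0.57, −0.53 and −0.71, back among the controls (0.02, interval −0.16 to 0.19, adjusted p = 0.875). Co-exposed arrays at 24 hr read −0.46, −0.35 and −0.17, 0.29 above control (adjusted p = 0.00541), or 0.13 with normexp (adjusted p = 0.269). The second Chek1 probe gave 0.38 (adjusted p = 0.00188) and 0.30 (adjusted p = 0.00707) at 4 hr, and 0.19 (adjusted p = 0.0676) in co-exposed cells at 24 hr.

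Chek2, the effector kinase of Atm, changed most among the 8 genes in the comparisons of KBrO3 and of co-exposure with control, apart from Clspn at KBrO3 24 hr. Its probe lies on the plus strand of chr5:110031736-110031795 and the second, dimmer Chek2 probe on the same strand of chr5:110015832-110015891 (mm7). Both sequences are shown because the change of Chek2 rests on the first.
Chek2 probe A_51_P137111: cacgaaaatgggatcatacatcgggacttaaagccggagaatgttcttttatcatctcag
Chek2 probe A_52_P117090: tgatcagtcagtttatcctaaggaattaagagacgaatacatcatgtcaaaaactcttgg
The controls read −1.74, −1.68 and −1.62, and the KBrO3 4 hr arrays −3.00, −3.05 and −3.11. Co-exposed 4 hr arrays read −2.67, −2.60 and −2.54. The 3 groups did not overlap, and KBrO3 alone gave the lowest level. Chek2 was −1.37 from control after KBrO3 (SE 0.055, 95% interval −1.49 to −1.25, adjusted p = 2.91e-10) and −0.92 after co-exposure (adjusted p = 9.55e-09), fold changes of −2.59 and −1.9. Within the slide that held 1 control and the 3 KBrO3 4 hr arrays, the difference was −1.44.

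At 24 hr Chek2 had passed the control level in the opposite direction. The KBrO3 24 hr arrays read −1.12, −1.04 and −0.99, and the co-exposed 24 hr arrays −0.67, −0.78 and −0.67. All 6 lay above the controls. The rise was 0.63 (adjusted p = 7.2e-07) after KBrO3, although it was −0.04 (adjusted p = 0.899) with the normexp background correction, which moved the median of all probes by −0.49. After co-exposure the rise was 0.97 (adjusted p = 1.1e-08), or 0.33 with normexp (adjusted p = 0.227). From 4 to 24 hr Chek2 rose by 2.01 in KBrO3 cells (adjusted p = 1.63e-11) and by 1.89 in co-exposed cells (adjusted p = 1.94e-11), fold changes of 4.02 and 3.72. The second Chek2 probe was well above background on 1 control array, on none at KBrO3 4 hr, and on 3 of 3 at co-exposure 24 hr. It entered the tests through co-exposure 24 hr alone and gives no measure of the fall at 4 hr. At 24 hr it was 0.09 from control after KBrO3 (adjusted p = 0.895) and 0.70 after co-exposure (adjusted p = 0.263), neither called. With the mean of all probes, the Chek2 call at KBrO3 24 hr was lost.

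Wee1, the kinase that delays mitosis, was dim and moved apart from the others. Its only probe lies on the plus strand of chr7:106054918-106054977 (mm7) and is shown because the result rests on it alone.
Wee1 probe A_52_P160078: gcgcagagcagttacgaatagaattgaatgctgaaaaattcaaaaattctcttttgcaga
The controls read −4.18, −4.21 and −4.42, the KBrO3 4 hr arrays −4.13, −4.17 and −4.19, and the co-exposed 4 hr arrays −3.85, −4.09 and −3.83. At 24 hr the KBrO3 arrays read −3.93, −3.86 and −3.38 and the co-exposed arrays −4.96, −4.53 and −4.57. The lowest signal that counted as well above background ran from −5.88 to −5.01 over the 15 arrays. At 24 hr the KBrO3 arrays lay above all controls and the co-exposed arrays below all of them. Wee1 differed from control by 0.11 at KBrO3 4 hr (adjusted p = 0.536), 0.54 at KBrO3 24 hr (adjusted p = 0.00614), 0.35 at co-exposure 4 hr (adjusted p = 0.0486) and −0.42 at co-exposure 24 hr (adjusted p = 0.0238). The normexp correction turned the KBrO3 24 hr value to −1.05 (adjusted p = 0.0461) and the co-exposure 4 hr value to −0.86. With slide as a random block none of the latter 3 was called (adjusted p = 0.0557, 0.101 and 0.132). The call at co-exposure 24 hr was also lost with quantile and median scaling and in some fits without 1 array. Over all settings that value ran from −1.39 to −0.03.

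**Figure D2:**
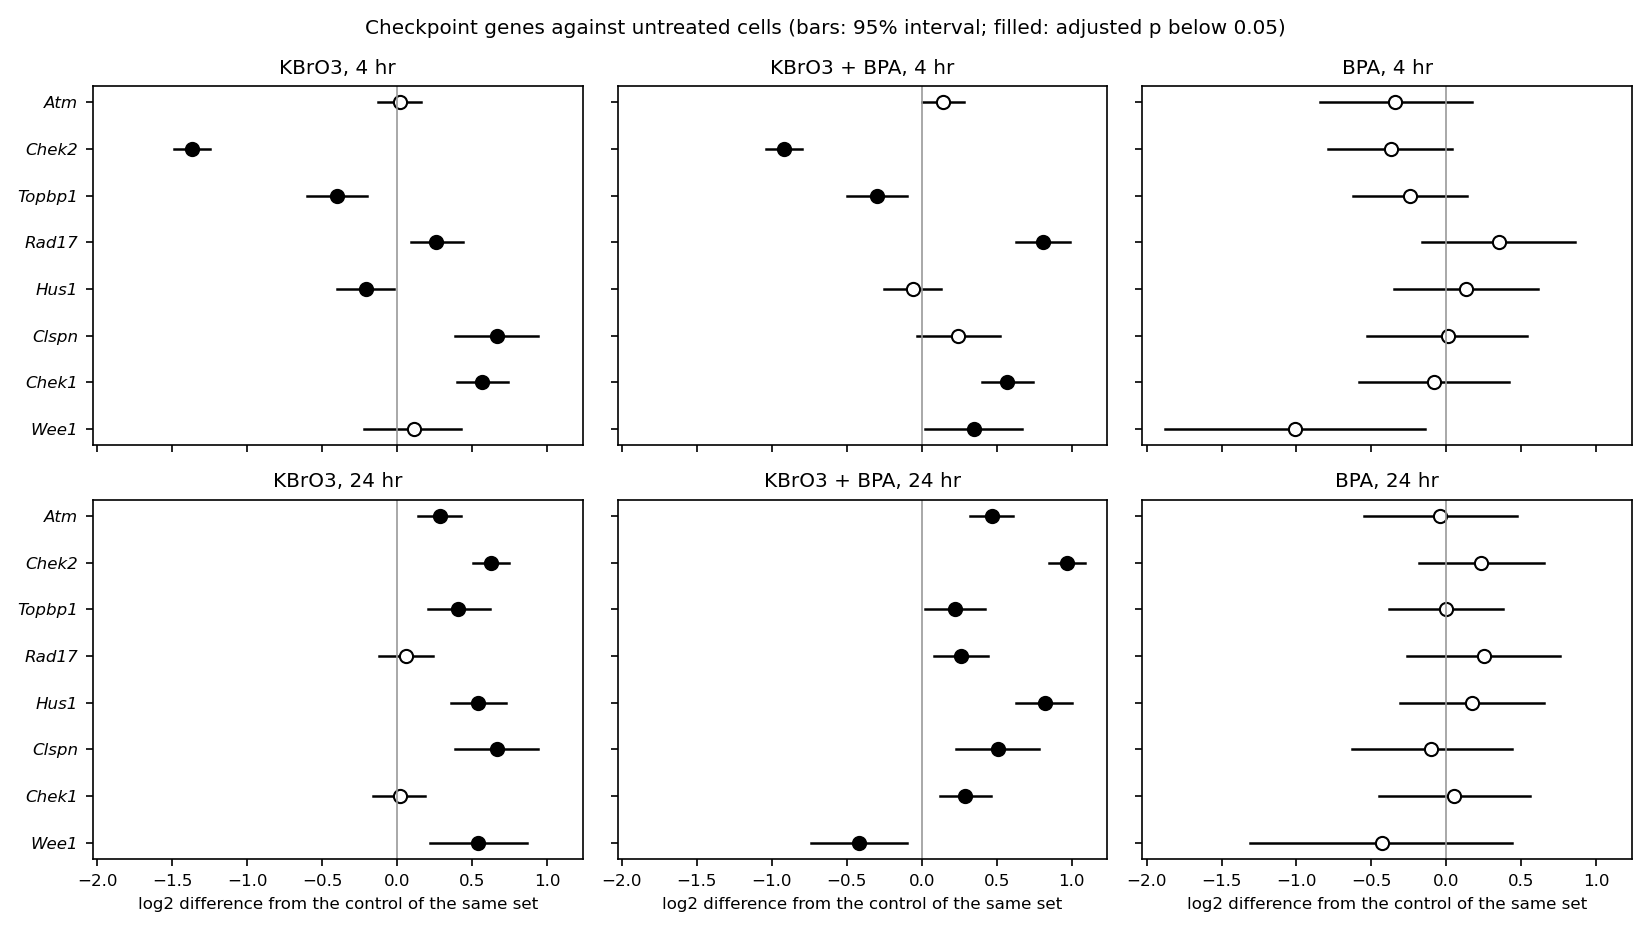
Log2 difference of the 8 genes from the control of the same set, by treatment (KBrO3, co-exposure or BPA alone) and time (4 or 24 hr), with 95% intervals (limma, 3 arrays a group). Chek2 moves from −1.37 to 0.63 with KBrO3 and from −0.92 to 0.97 with co-exposure, and Chek1 from 0.57 to 0.02 and from 0.57 to 0.29; with the normexp correction the KBrO3 24 hr values are −0.04 for Chek2 and −1.05 for Wee1, and the co-exposure 4 hr value of Wee1 is −0.86.

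From 4 to 24 hr of KBrO3, 7 of the 8 genes were called, 5 higher and 2 lower, where 75.3% of all probes were called (33% higher, 42.3% lower). Besides Chek2 and Topbp1, Hus1 rose by 0.76 (adjusted p = 5.37e-06) and Atm by 0.27 (adjusted p = 0.00256), while Chek1 fell by 0.56 (adjusted p = 3.6e-05) and Rad17 by 0.20 (adjusted p = 0.0377). With slide as a random block Atm (0.25, adjusted p = 0.0512), Rad17 (−0.17, adjusted p = 0.159) and Wee1 (0.39, adjusted p = 0.206) were no longer called, and with normexp these 3 were not called as higher or lower either. Wee1 was 0.44 higher at 24 hr (adjusted p = 0.0173), but −0.14 under the normexp correction. Clspn was level between the times (−0.00, adjusted p = 1.0), and among the brightest probes only that of Chek2 passed the threshold of the Methods in either treatment, where 26.7% of all probes passed with KBrO3 and 30.1% with co-exposure. The Hus1 probe A_52_P356119 passed in both treatments and the second Atm probe with KBrO3. In co-exposed cells 7 genes were called as well, 4 higher and 3 lower, against 81.2% of all probes (32.8% higher, 48.4% lower). Hus1 rose by 0.88 (adjusted p = 1.21e-06), Topbp1 by 0.52 (adjusted p = 0.000213) and Atm by 0.33 (adjusted p = 0.000621). With slide as a fixed block Topbp1 was at 0.15 (adjusted p = 0.311) and Atm at 0.14 (adjusted p = 0.257), and neither was called. Clspn was not called without a block (0.26, adjusted p = 0.0718). It was called as higher with slide as a random block (0.38, adjusted p = 0.0234) and as a fixed block (0.39, adjusted p = 0.0416). Rad17 fell by 0.55 (adjusted p = 5.53e-05) and Wee1 by 0.76 (adjusted p = 0.000451). Rad17 was at −0.09 (adjusted p = 0.389) with median scaling, and the call of Wee1 was lost with quantile, median and normexp scaling, at values up to −0.21. Chek1 differed by −0.28 (adjusted p = 0.00607), or 0.18 when arrays were scaled to their median, a scaling that moved the median of all probes by 0.46 in this comparison.

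By the brightest probes, the addition of BPA to KBrO3 raised Rad17 and Chek2 and lowered Clspn at 4 hr. In this comparison 3 of the 8 genes were called, 2 higher and 1 lower, where 57.8% of all probes were called (29.2% higher, 28.6% lower). Rad17 was 0.55 higher in co-exposed cells (adjusted p = 0.00015), Chek2 0.45 higher (adjusted p = 3.31e-05) and Clspn 0.42 lower (log2 difference −0.42, adjusted p = 0.0131). The 2 groups were hybridized on separate slides, so treatment and slide cannot be told apart here. With slide as a random block the 3 differences were 0.48, 0.53 and −0.58, all called, whereas normexp left that of Rad17 and not those of Chek2 (0.24, adjusted p = 0.699) and Clspn (−0.38, adjusted p = 0.281). Among the dimmer probes at 4 hr, the second of Atm was 0.38 higher (adjusted p = 3.44e-05), where the first was not called (0.12). The Hus1 probe A_52_P356119 was lower (−0.17, adjusted p = 0.0393), where the brightest was not called (0.15). At 24 hr, 5 genes were called, 4 higher and 1 lower, where 46.7% of all probes were called (23.1% higher, 23.7% lower). Chek2 was 0.34 higher (adjusted p = 0.000323), Chek1 0.28 (adjusted p = 0.0122), Hus1 0.27 (adjusted p = 0.0217) and Atm 0.18 (adjusted p = 0.0427). The call of Atm was lost in 13 of 19 settings, and its second probe gave 0.06 (adjusted p = 0.332). Wee1 was −0.96 from KBrO3 alone (SE 0.15, 95% interval −1.28 to −0.64, adjusted p = 0.000208), a fold change of −1.95. With normexp none of the 5 was called, and Wee1 was at −0.35 (adjusted p = 0.878). The calls of Chek1 and Hus1 were also lost in the fit on only the arrays compared and without KBrO3 24 hr replicate 3, that of Hus1 without co-exposure 24 hr replicate 3, and that of Chek2 with the mean of all probes. On the slide that held both 24 hr groups, the Wee1 difference was −1.13, that of Chek2 0.28, that of Rad17 0.17, that of Topbp1 −0.34 and that of Atm 0.09. Atm was called with neither form of slide block (adjusted p = 0.0921 as a random and 0.289 as a fixed block), whereas Rad17 and Topbp1 were called with both. No gene passed the threshold of the Methods for either time, where 4.99% of all probes passed at 4 hr and 5.8% at 24 hr.

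The effect of BPA on top of KBrO3 changed between the times for Wee1, and for Rad17 by a smaller amount that was lost with slide as a random block (−0.29, adjusted p = 0.0938). In that fit Topbp1 was called (−0.52, adjusted p = 0.04). Without the block, the change of the difference from 4 to 24 hr was −1.20 for Wee1 (SE 0.21, 95% interval −1.66 to −0.75, adjusted p = 0.000552) and −0.34 for Rad17 (SE 0.12, interval −0.59 to −0.09, adjusted p = 0.0255), where 54.3% of all probes were called and 3.84% passed the threshold of the Methods, which neither gene did. For Wee1 the co-exposed arrays lay above every KBrO3 array at 4 hr (difference 0.24, adjusted p = 0.184) and below every one at 24 hr. The normexp correction left −0.40 for Wee1 (adjusted p = 0.889). Scaling to the array median left −0.03 for Rad17 (adjusted p = 0.857). For Chek1 the change was 0.28 and just missed the threshold (adjusted p = 0.0503), and that of its second probe was 0.37 (adjusted p = 0.0248). The second Atm probe gave −0.32 (adjusted p = 0.00165), where the first was not called. For Hus1, the probe A_52_P356119 gave 0.47 (adjusted p = 0.00122).

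**Figure D3:**
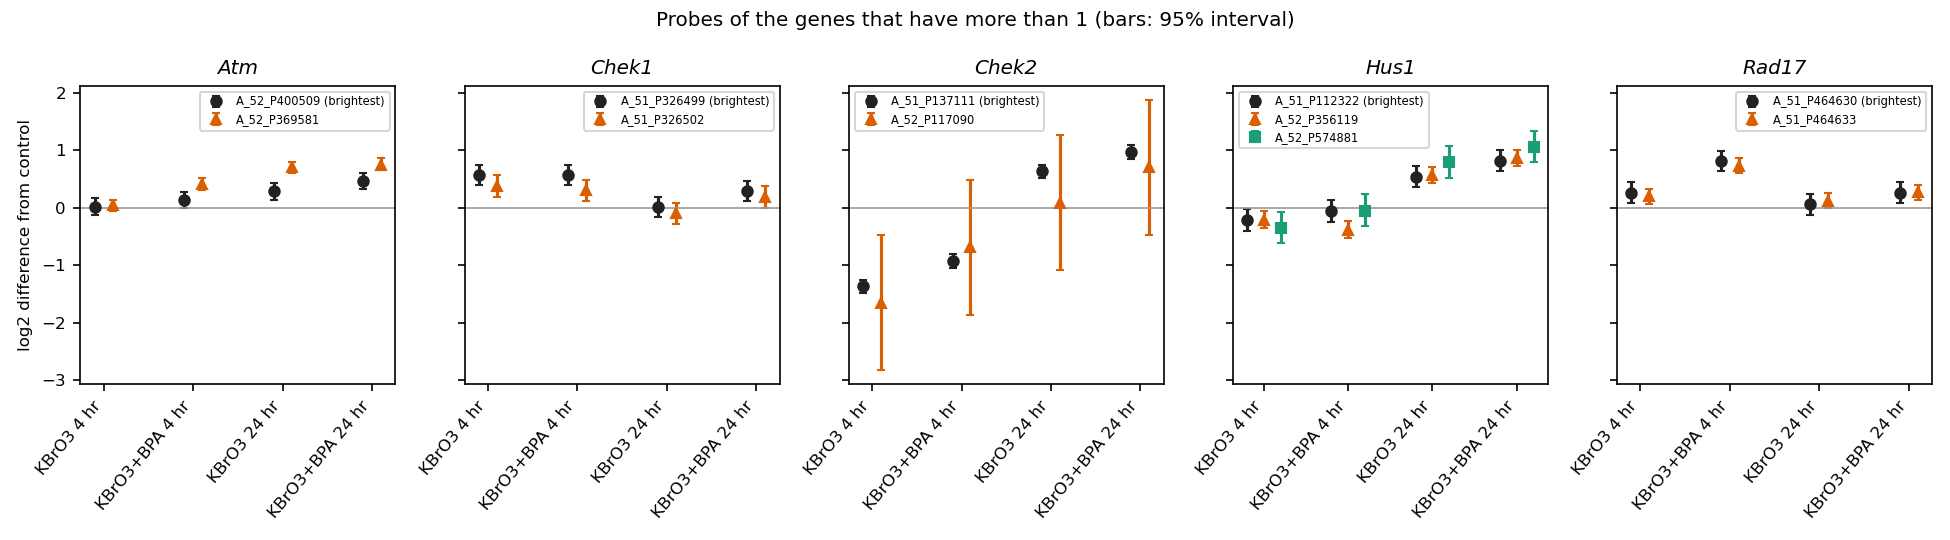
Log2 difference from control for every probe of the 5 genes with more than 1 probe (Atm, Chek1, Chek2, Hus1, Rad17), with 95% intervals. The probes of Rad17 lie close together, whereas the Atm probes read 0.29 and 0.70 at KBrO3 24 hr and the dim Chek2 probe has wide intervals.

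BPA alone changed none of the 8 genes past the adjusted threshold. In the second set 0 genes were called by limma at 4 hr (4.24% of all probes), at 24 hr (3.4%) or between the times (3.79%), and none passed the threshold of the Methods (0.066, 0.0189 and 0.0377% of all probes). At an unadjusted p below 0.05 there was 1 gene at 4 hr, none at 24 hr and 1 between the times, against 18.8, 18.3 and 19.9% of all probes. The gene at 4 hr was Wee1, whose controls read −3.22, −2.23 and −2.17 and whose BPA 4 hr arrays read −3.26, −3.85 and −3.54. All treated arrays lay below the controls, 1 of which was only just above them. The difference was −1.01 (95% interval −1.88 to −0.14, limma adjusted p = 0.197), and −0.18 on the slide that held both groups. At 24 hr the Wee1 arrays read −3.74, −2.52 and −2.67, of which the first lay below all controls and the others among them.

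Chek2 was the gene between the BPA times. Its second-set controls read −0.79, −1.08 and −1.17, the BPA 4 hr arrays −1.23, −1.44 and −1.49, and the BPA 24 hr arrays −0.85, −0.67 and −0.83. The 4 hr arrays were below all controls and below all 24 hr arrays. From 4 to 24 hr of BPA the difference was 0.61 (interval 0.19 to 1.02, adjusted p = 0.109). The controls of Topbp1 read 2.14, 2.35 and 2.32 and its BPA 4 hr arrays 2.13, 2.03 and 1.92, likewise without overlap. In all, 3 of the 8 genes lay wholly below control at BPA 4 hr, a pattern held by 13.3% of all probes. The 95% intervals of the 8 genes reached 0.38 to 0.88 to either side in the second set, against 0.12 to 0.33 where 2 groups of the first set were compared. Rad17 read 2.25, 1.75 and 1.52 in those controls and 2.11, 2.35 and 2.12 at BPA 4 hr, and the groups overlapped. The second Rad17 probe lay wholly above control at BPA 4 hr (0.35, adjusted p = 0.388) and at BPA 24 hr (0.49, unadjusted p = 0.0351, limma adjusted p = 0.233), and neither was called.

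The other genes of the pathway, grouped by role, were counted in the same way. Of 48 with a probe, 47 were tested in the first set. At KBrO3 4 hr 18 were higher, 21 lower and 8 not called, and at 24 hr 35 were higher, 5 lower and 7 not called. Co-exposure gave 23 higher and 18 lower at 4 hr, and 34 higher and 3 lower at 24 hr. Their median differences were −0.08, 0.39, 0.02 and 0.30 in that order of 4 comparisons. As shares of the 47, these were 38.3% higher and 44.7% lower at KBrO3 4 hr and 48.9 and 38.3% at co-exposure 4 hr, near the shares of all probes (36.3 and 35.8%, and 41.6 and 37%). At 24 hr they were 74.5% higher after KBrO3 and 72.3% after co-exposure, where 32.1 and 32.9% of all probes were higher. The shares of all probes given for each comparison are also the background of the counts by role that follow. Most of the 47 were higher at 24 hr under each of quantile, median and normexp scaling as well.

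Among the partners of Rad17 and Hus1 in the clamp and its loader, 1 of 7 genes was higher and 4 lower at KBrO3 4 hr, and 6 higher and 1 lower at 24 hr. Rad9b, a clamp subunit, had the largest rise of the list at co-exposure 4 hr, 1.85, but was −0.60 under the normexp correction. Rfc3, a subunit shared by the clamp loaders, rose by 0.49 at KBrO3 4 hr. Rfc2, a further shared subunit, was −0.93 from control at KBrO3 4 hr and −1.01 at co-exposure 4 hr. Of 7 genes that activate Atr at forks, 5 were higher at KBrO3 4 hr and 2 lower. Atrip, the partner of Atr, rose at 4 hr by 1.08 with KBrO3 and by 1.28 with co-exposure. Rpa3, of the complex that coats single-stranded DNA, was −0.44 and −0.61 from control.

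Of 4 genes that sense breaks and activate Atm, 4 were higher and none lower at 24 hr, both after KBrO3 and after co-exposure. Rad50, of the complex that tethers broken ends, was −0.88 from control at KBrO3 4 hr and −0.52 at co-exposure 4 hr. Mre11a, of the same complex, was 0.82 higher at KBrO3 24 hr and 1.15 at co-exposure 24 hr. The mediators that act on chromatin at breaks, where Mdc1 also belongs, were split at KBrO3 4 hr, with 5 of 12 higher and 6 lower, and at 24 hr 8 were higher and 2 lower. Rnf8, the ubiquitin ligase recruited by Mdc1, rose by 1.60 at co-exposure 4 hr. Abraxas1, a scaffold of a Brca1 complex, was −1.68 from control at KBrO3 4 hr and 1.84 higher in co-exposed than in KBrO3 cells at that time. In this group Bard1, the partner of Brca1, lay furthest from control at KBrO3 24 hr, by at least 4.04-fold over controls of which none read it well above background, and was −0.78 under the normexp correction. Of the 3 genes that help fold Atm and Atr, 1 was higher and 2 lower at KBrO3 4 hr, and Telo2 was −0.69 from control.

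The cell cycle targets of Chek1, Chek2 and Wee1 mostly fell at 4 hr. Of 10, 1 was higher and 6 lower after KBrO3, and 1 higher and 7 lower after co-exposure. At 24 hr 7 were higher and 1 lower after KBrO3, and 4 higher and 2 lower after co-exposure. Cdc25a, a phosphatase that Chek1 marks for destruction, rose by 1.83 at KBrO3 4 hr. Plk1, a mitotic kinase that helps end the checkpoint, was −1.47 from control at KBrO3 4 hr, and Cdc25b, a phosphatase that activates Cdk1, −2.54 at co-exposure 4 hr. Co-exposed cells were lower than KBrO3 cells in 8 of these genes at 4 hr and 7 at 24 hr, and higher in none, where 28.6 and 23.7% of all probes were lower. In the p53 arm 4 of 4 genes were higher after KBrO3 at both times, but with normexp 3 were, and Ppm1d, a phosphatase induced by p53, was at −0.00 and −0.14. Cdkn1a, the inhibitor of cyclin-dependent kinases induced by p53, rose by 3.08 at KBrO3 4 hr and 1.13 at 24 hr, and by 2.92 and 2.78 in co-exposed cells. At 24 hr Cdkn1a was 1.65 higher in co-exposed than in KBrO3 cells.

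**Figure D4:**
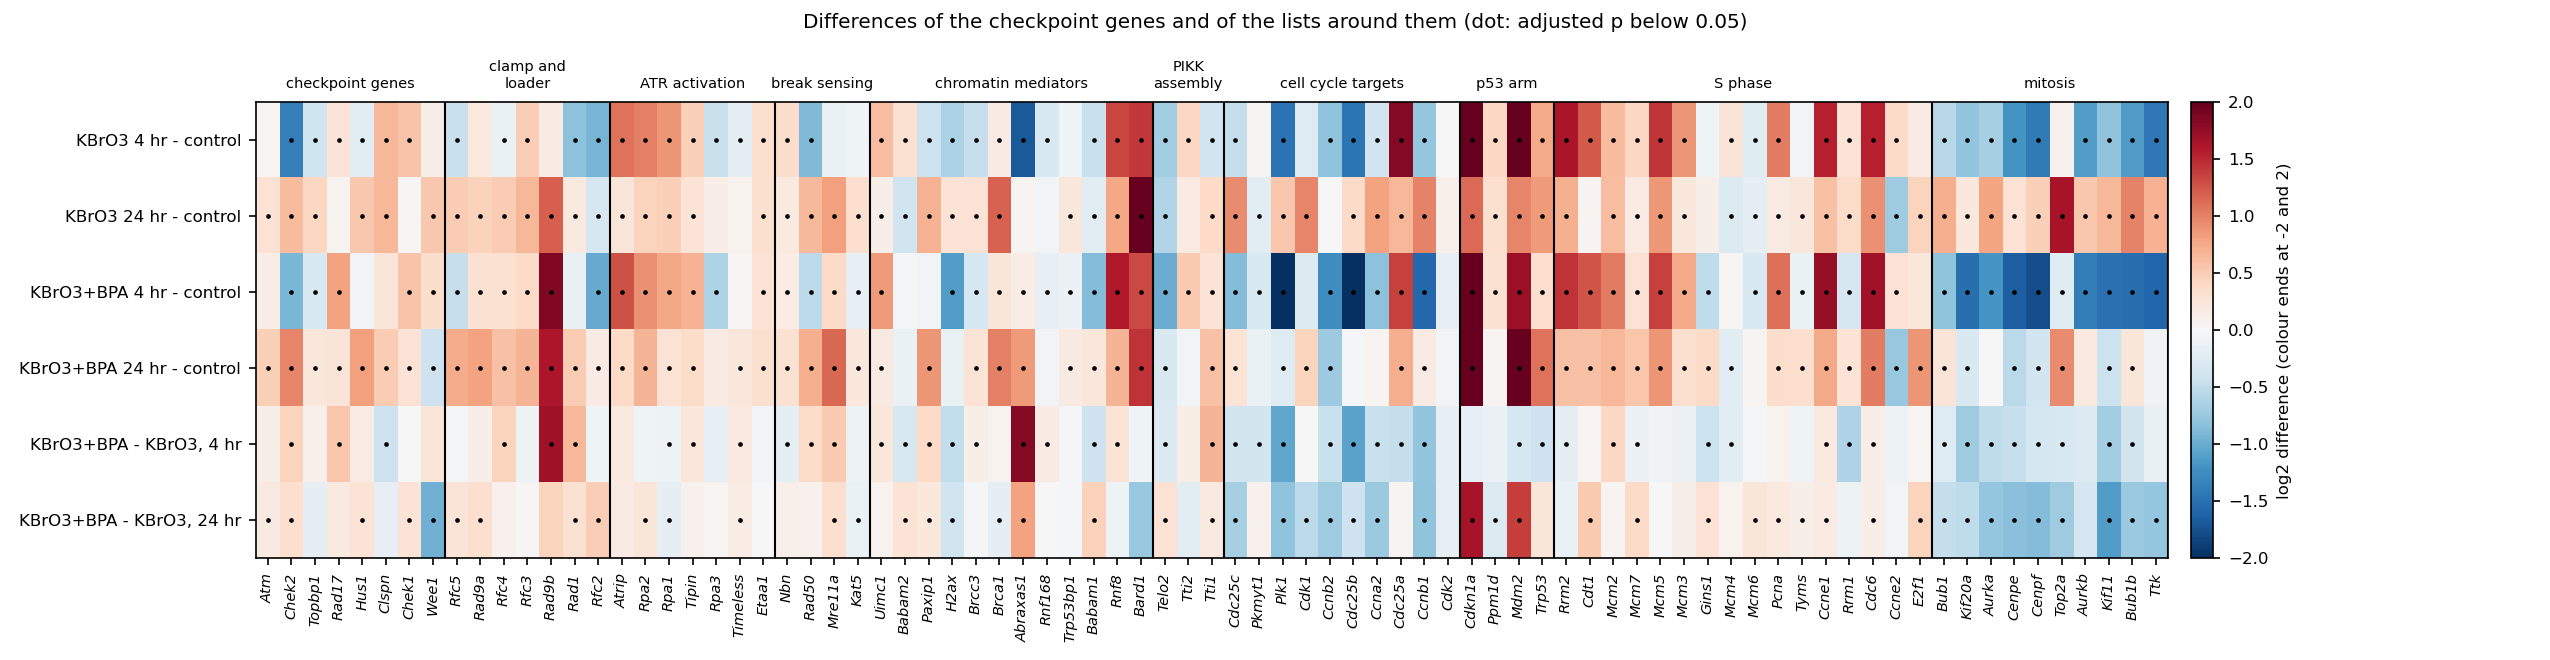
Log2 differences of the 8 genes, of the other tested pathway genes, grouped by role, and of the S phase and mitosis genes. The 4 comparisons with control and the 2 of co-exposure with KBrO3 are on 1 colour scale. Values past its ends take the end colour, among them Cdkn1a (3.08 at KBrO3 4 hr) and Cdc25b (−2.54 at co-exposure 4 hr).

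Reference genes of S phase and of mitosis were counted beside the members, since several checkpoint genes are transcribed with the cycle. Of 16 S phase genes, 12 were higher and 1 lower at KBrO3 4 hr, with a median of 0.52, and 11 were higher and 3 lower at 24 hr, with a median of 0.22. Of 10 mitosis genes, 9 were lower and none higher at KBrO3 4 hr (median −0.96), and 10 were higher at 24 hr (median 0.69). Co-exposed cells had 10 of the 10 lower at 4 hr (median −1.5), and 3 higher and 4 lower at 24 hr (median −0.03, or 0.09 to 0.28 under the other scalings). Against KBrO3 alone, co-exposed cells were lower in 8 of 10 mitosis genes at 4 hr (median −0.36) and 9 at 24 hr (median −0.76). From 4 to 24 hr of co-exposure all 10 rose (median 1.19). After BPA alone 1 was lower at 4 hr and none was called at 24 hr, with medians of −0.69 and −0.42. In the KBrO3 comparisons with control Chek2, Topbp1 and Hus1 were called in the same direction as the mitosis genes at both times, and Chek1, Clspn and Rad17 at 4 hr in that of the S phase genes, with the exceptions under other settings given above for each. At KBrO3 24 hr, where 11 of the 16 S phase genes were higher, Clspn was higher and Chek1 and Rad17 were not called. In co-exposed cells Chek2 was −0.92 from control at 4 hr, rose by 1.89 from 4 to 24 hr and was 0.97 above control at 24 hr, and it was 0.45 and 0.34 above KBrO3 alone at the 2 times. The part of cell cycle stage in the members' changes was not tested.

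Over the 15 arrays of the first set, the levels of Chek2, Topbp1, Hus1 and Atm were positively correlated. Pearson r ran from 0.694 (Atm and Topbp1) to 0.912 (Chek2 and Topbp1). By the brightest probes, Atm was not called lower than control in either treatment, and Hus1 was called lower after KBrO3 alone only. Chek1 and Rad17 correlated at 0.797. Clspn and Wee1 followed no other member closely, and their highest r was 0.391 (with Atm) and 0.171 (with Clspn). Chek1 and Chek2 ran in opposite directions (r = −0.697). The arrays share 5 slides and 5 groups of 3, so these are descriptions. Among 14089 genes compared, the one most like Chek2 was Pigh (r = 0.997), that most like Chek1 was Pgm3 (0.984), that most like Rad17 was Atf1 (0.986) and that most like Topbp1 was Ubr7 (0.977). For Hus1 it was Ccdc43 (0.986) and for Atm Dna2 (0.957). Clspn (Erfe, 0.912) and Wee1 (Hhip, 0.875) had the least similar nearest gene.

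Chek2 and Topbp1 had the same calls in the 4 comparisons with control and the 2 between times: lower at 4 hr, higher at 24 hr, and higher at 24 than at 4 hr, in both treatments. Under other settings, normexp or slide blocks among them, several of these calls were lost: for Chek2 both at 24 hr against control, and for Topbp1 those at KBrO3 4 hr (−0.17 with normexp), of co-exposed cells against control and between the co-exposure times. Chek1 and Rad17 also shared theirs by their brightest probes: higher at 4 hr, not called at KBrO3 24 hr, higher at co-exposure 24 hr, and lower at 24 than at 4 hr. The second Chek1 probe was not called at co-exposure 24 hr (0.19, adjusted p = 0.0676) or between the co-exposure times (−0.11, adjusted p = 0.257). The second Rad17 probe was not called between the KBrO3 times (−0.08, adjusted p = 0.247). The fall of Chek1 in co-exposed cells was 0.18 upward with median scaling and that of Rad17 −0.09, the fall of Rad17 after KBrO3 was lost in 11 of 18 settings, and the calls of Rad17 at KBrO3 4 hr and of Chek1 at co-exposure 24 hr were lost in 1 setting each. The 250 bases before the start site of these 4 genes are shown because of their shared calls, from RefSeq (GRCm38.p6). Capitals mark words searched on both strands: the E2F-type word TTTGGCG, its variant TTTCCCG, its variant TTTCGCG, the CHR word TTTGAA and the word CCAAT. They are at chr5:110839733-110839982 (plus strand), chr9:103305077-103305326 (plus), chr9:36726659-36726908 (minus) and chr13:100651062-100651311 (minus).
Chek2 promoter: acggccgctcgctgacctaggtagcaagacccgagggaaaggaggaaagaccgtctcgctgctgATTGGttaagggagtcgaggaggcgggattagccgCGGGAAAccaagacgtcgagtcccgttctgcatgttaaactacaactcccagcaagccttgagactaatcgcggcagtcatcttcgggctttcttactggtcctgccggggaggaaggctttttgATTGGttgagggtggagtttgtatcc
Topbp1 promoter: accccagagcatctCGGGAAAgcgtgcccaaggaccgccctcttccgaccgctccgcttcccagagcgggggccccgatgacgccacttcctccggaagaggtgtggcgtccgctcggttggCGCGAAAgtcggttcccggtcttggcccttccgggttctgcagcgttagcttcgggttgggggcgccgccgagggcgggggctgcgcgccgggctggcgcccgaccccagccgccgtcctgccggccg
Chek1 promoter: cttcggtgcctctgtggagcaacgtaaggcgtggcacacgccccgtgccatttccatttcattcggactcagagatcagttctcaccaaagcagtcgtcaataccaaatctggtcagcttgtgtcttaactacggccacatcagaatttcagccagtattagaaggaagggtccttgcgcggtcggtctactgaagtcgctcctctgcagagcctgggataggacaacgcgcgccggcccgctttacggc
Rad17 promoter: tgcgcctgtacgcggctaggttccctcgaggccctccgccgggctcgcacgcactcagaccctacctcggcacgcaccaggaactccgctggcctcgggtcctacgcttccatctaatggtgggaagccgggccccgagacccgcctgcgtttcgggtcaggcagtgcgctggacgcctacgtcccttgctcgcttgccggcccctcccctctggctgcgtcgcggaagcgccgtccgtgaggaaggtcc
In the windows of 250 bases before to 50 after the start, Chek2 and Topbp1 both held TTTCCCG, which 3.39% of all 32851 promoters in the table held, and Topbp1 held TTTCGCG too (0.849%). Chek2 also held CCAAT (37.4%). Chek1 held TTTGGCG (1.56%) after its start, outside the bases shown, and Rad17 held none of these words, nor GGGCGG (35.7%). A promoter was found for 9 of the 10 genes, and 5 of the 9 (Clspn, Chek2, Chek1, Topbp1 and Mdc1) held at least 1 E2F-type word, against 5.58% of all promoters and 11% of the 8148 promoters with at least as many CpG dinucleotides as the lowest of them. TTTGAA (17.9%) was in the Hus1 window. The GC content of the 9 ran from 54.7 to 73.7%, above the median of 52.7%. A match of letters is a description and shows no binding.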

How the data were processed

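Total RNA, labelled with Cy3, was hybridized to Agilent whole mouse genome arrays. The deposited files hold the processed signal intensity per spot, background-subtracted by the authors with Feature Extraction (9.5.3.1 in the headers of the first set, 12.0.0.7 in the second; the submitters' processing notes name 12.0). The deposited value table held the same intensity values in 1080432 of 1080432 cells, to a relative tolerance of 1e-06. No normalization had been applied across arrays.

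For each array the 75th percentile of log2 intensity was subtracted, outlier spots were left out and the spots of a probe were averaged. A probe entered the tests of a set if all arrays of some group there had it well above background. Tests used limma 3.58.1 (R 4.3.3; lmFit, eBayes) and Benjamini-Hochberg adjustment. The number of arrays (3 a group) limits the precision. Of 41174 probes, 32737 matched a RefSeq gene, 23082 by accession. The 8 genes had 14 probes, and the brightest over the 24 arrays stood for the gene. Probes named Cds1, an old symbol of Chek2, carry the accession of another gene and were left out. All members were named, with the nearest gene of each by Pearson r, and pathway genes were named where theirs was the largest rise or fall of their group in a comparison. The members and lists were chosen with earlier results of these data known.

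Alternatives were quantile, median and normexp (offset 50) normalization, the deposited value table, 2 filters, outlier spots kept, all probes averaged, error weights, fewer groups, slide and replicate blocks, and each array left out. Replicate numbers were checked as pairs: deviations of same-numbered arrays correlated at −0.0294 on average in the first set (30 pairs) and 0.00216 in the second (9 pairs), so they were not used as pairs. Scripts were tested on simulated data.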

Additional observations from a re-analysis of the deposited data

Results flagged for a closer look

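The difference between co-exposure and KBrO3 alone changed between 4 and 24 hr for Wee1 and Rad17, by the interaction term of the limma fit. For Wee1 the change was −1.20 (adjusted p = 0.000552), with co-exposed arrays above KBrO3 arrays at 4 hr and below them at 24 hr, and leaving out each array in turn gave −1.31 to −1.03, but with the normexp correction it was −0.40 (adjusted p = 0.889). For Rad17 it was −0.34 (adjusted p = 0.0255), and apart from the Bonferroni threshold it was not called in 8 alternatives, among them slide as a random block and 5 that leave out 1 array.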

How the results depend on the processing

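Of 49 called values of the 8 genes, 16 stayed called in the same direction under each setting run for them other than the Bonferroni threshold (18 or 19 settings a value). Of 47 values not called, 12 were called under some setting. Under the Bonferroni rule of the Methods 1 gene was called for KBrO3 and for co-exposure in each comparison with control and between times, and 0 for BPA alone and for co-exposure against KBrO3 at 4 hr, at 24 hr and in its change. With normexp the calls were 2 at KBrO3 24 hr, 3 at co-exposure 4 hr, 5 at co-exposure 24 hr, 1 and 0 for co-exposure against KBrO3 at 4 and 24 hr, 4 for KBrO3 between times, and 0 for the change. Slide as a random block gave 3 at co-exposure 4 hr and 4 for KBrO3 between times. Fits on only the arrays compared gave 5 and 2 for co-exposure against KBrO3 at 4 and 24 hr. Scaling to the median and the mean of all probes each gave 4 for the change. Leaving out 1 array gave 2 to 6 calls for co-exposure against KBrO3 at 24 hr (2 without KBrO3 24 hr replicate 3), and 1 to 3 for the change (1 without KBrO3 4 hr replicate 3, co-exposure 4 hr replicate 3 or co-exposure 24 hr replicate 2).

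The values that were called in either fit and changed sign were Chek1 between the co-exposure times (0.18, median scaling) and, with normexp, Chek2 at KBrO3 24 hr (−0.04) and Wee1 at KBrO3 24 hr (−1.05), at co-exposure 4 hr (−0.86) and between the KBrO3 times (−0.14). The cause was not tested. Normexp moved the median of all probes by −0.52 to −0.45 in the comparisons with the first controls, and median scaling by up to 0.46. With the replicate number as a block, 92 of 96 values stayed on the same side of the threshold, 4 lost their call and 0 changed sign. Wee1 had the signal nearest to background among the 8 probes.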
